A study of Mus musculus with 6 samples.

Results

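The genes described here are *Smyd1*, its paralog *Smyd2* and 8 chaperone genes, some of which serve the folding and assembly of muscle myosin. They were measured in cultured muscle satellite cells (MuSCs), the stem cells of skeletal muscle. They are 10 of the 20654 genes of the count table. The methyltransferase gene *Smyd1* and its paralog *Smyd2*, the myosin chaperones *Unc45a* and *Unc45b*, the cytosolic HSP90 genes *Hsp90aa1* and *Hsp90ab1*, and the small heat shock protein genes *Cryab*, *Hspb1*, *Hspb2* and *Hspb8* were taken by symbol. The list was chosen by function around *Smyd1*, which was itself selected on its difference between the groups in these same libraries, an edgeR adjusted p under 0.05 over all genes tested. For that reason the group differences of the members are given as a description, with the adjusted p-values of the fit across all genes and with nothing inferred from them.

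RNA was taken from 3 wild type and 3 *Piezo1* cKO samples of cultured MuSCs from C57BL/6 mice. In *Piezo1* cKO mice both *Piezo1* alleles were floxed and Cre recombinase fused to a tamoxifen-dependent receptor was expressed from 1 *Pax7* allele, so that deletion was confined by design to *Pax7*-expressing cells. The labels call the controls wild type, whereas the study names *Pax7* CreERT2/+ cells as the comparison for *Piezo1* cKO in its description of the RNA data, so that the controls may carry the Cre allele too. Animals of the ex vivo experiments received tamoxifen, and 1 µM 4-hydroxytamoxifen was present in the medium of both groups. MuSCs were sorted from limb muscle as VCAM1+ cells, with antibodies against CD31, CD45 and Sca1 in the same stain, and were grown for 3 d in serum-rich growth medium on Matrigel. The libraries held from 726378 to 931168 unique molecular identifier (UMI) counts, each count standing for a cDNA molecule primed at the poly(A) tail. Levels are given as CPM, counts per 1e+06 counts of the genes tested in a library, scaled by the TMM factors of edgeR. The floor used here, 3 counts, was worth 3.35 to 4.31 CPM depending on the library. Nothing in the labels ties each library to its own animal, so that p-values measure the spread between these libraries, which may be technical.

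Myosin heads do not fold without help. HSP90 binds the unfolded motor domain together with an UNC45 protein, of which UNC45B is the form of striated muscle and UNC45A the form of other cells, and SMYD1, a lysine methyltransferase of heart and skeletal muscle, acts with this pair during the assembly of thick filaments. Small heat shock proteins such as αB-crystallin, the product of *Cryab*, hold unfolding proteins in a soluble state, and HSPB8 passes damaged filament proteins to a BAG3 complex for removal by autophagy. Many of these genes carry heat shock elements, to which heat shock factors bind, and the muscle-restricted ones are targets of myogenic factors.

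Promoter sequences were at hand for 6 of the 10 members in RefSeq (build GRCm38.p6). The 4 shown are those of *Smyd1*, the gene the list was built on, of its partner *Unc45b*, and of *Hspb1* and *Hspb8*, those of the 6 with a match to a heat shock element. Each runs 5′ to 3′ along the gene from 150 bases before the start to 20 bases into the transcript, with matches to a heat shock element, an E-box or a TATA box in capitals.
Smyd1 (chr6:71262262-71262431, minus strand): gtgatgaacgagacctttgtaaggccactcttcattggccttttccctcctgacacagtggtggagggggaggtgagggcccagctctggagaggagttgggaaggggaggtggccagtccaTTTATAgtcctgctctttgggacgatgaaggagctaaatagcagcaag
Unc45b (chr11:82911103-82911272, plus strand): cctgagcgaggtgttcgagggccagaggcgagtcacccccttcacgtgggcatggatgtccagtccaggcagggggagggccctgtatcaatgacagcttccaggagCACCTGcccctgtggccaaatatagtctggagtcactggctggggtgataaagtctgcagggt
Hspb1 (chr5:135887769-135887938, plus strand): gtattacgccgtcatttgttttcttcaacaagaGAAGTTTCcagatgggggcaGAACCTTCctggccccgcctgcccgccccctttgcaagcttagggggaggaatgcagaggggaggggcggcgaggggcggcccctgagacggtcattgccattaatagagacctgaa
Hspb8 (chr5:116422845-116423014, minus strand): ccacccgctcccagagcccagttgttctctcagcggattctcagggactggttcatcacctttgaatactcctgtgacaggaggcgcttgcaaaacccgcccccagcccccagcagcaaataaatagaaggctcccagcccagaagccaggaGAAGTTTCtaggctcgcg

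The search covered both strands of the 300 bases from 250 before to 50 after each start, and a position is that of the first base of a match, with the start as position 0. The heat shock element (GAANNTTC or TTCNNGAA) occurred in 15.1% of 32851 mouse promoters of this length and, among the 6 members, in *Hspb1* at -117 and -97 and in *Hspb8* at 2. The myogenic E-box (CAGCTG or CACCTG), which occurred in 32.9% of promoters, was present in *Unc45b* at -43. The TATA box (TATAAA) of 13.6% of promoters was found on the reverse strand of *Smyd1* at -28. *Smyd1* also held the CCAAT box (CCAAT, 37.4% of promoters) at -117, which is not capitalised in its sequence. None of the 6 windows held a MEF2 site (3.19% of promoters) or a CArG box (1.63%) as searched. These matches describe letters in the windows and not bound sites.

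*Piezo1*, the deleted gene, had 11, 5 and 6 counts in wild type libraries 1 to 3 and 7, 12 and 9 in *Piezo1* cKO libraries 1 to 3. The groups overlapped, with a log2 fold change of 0.42 ± 0.46 (SE) and an edgeR adjusted p of 0.791. As each library was left out, the fold change ran from 0.14 without wild type 2 to 0.93 without wild type 1. *Piezo1* thus does not check the labels, and the direction of every difference below rests on them. The counts of *Piezo1* lie near the floor and come from the 3′ end, where 2 genes on the opposite strand overlap it, so that they say little about the floxed exons. The cells carried the identity given by the labels: all 7 myoblast markers were tested, and *Myod1*, the most abundant of them, had between 1087 and 1569 CPM. Endothelial markers summed to at most 7.19 CPM in any library and Schwann cell markers to at most 10.1 CPM, and none of either list was tested. The 3 haematopoietic markers in the table, none of them tested either, summed to 10.1, 27.9 and 13.0 CPM in wild type and to 10.1, 14.5 and 10.6 CPM in *Piezo1* cKO. These levels are of the same order as that of *Smyd1* in wild type, and the highest came from wild type 2, where *Lyz2*, a gene of myeloid cells, had 11 counts against 0 or 1 in the other libraries. *Cd68*, the most abundant of the 3, had 5, 13 and 10 counts in wild type and 7, 11 and 8 in *Piezo1* cKO. Of 6 smooth muscle and pericyte markers 5 were in the table, and they summed to 44.6, 31.2 and 43.7 CPM in wild type and to 54.5, 58.1 and 83.5 CPM in *Piezo1* cKO, without overlap. *Cspg4*, the most abundant of these and the single one tested, had 28, 25 and 25 against 39, 32 and 54 counts (0.76 ± 0.25, edgeR adjusted p = 0.143), while *Rgs5* had 0, 0 and 1 against 2, 4 and 6 counts, *Pdgfrb* overlapped between the groups with 3, 3 and 10 against 2, 7 and 3, and *Myh11* and *Abcc9* had 1 count each over all libraries.

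Among the libraries, wild type 2 and *Piezo1* cKO 2 stood apart in markers of differentiating myocytes. The 7 markers in the table summed to 279, 113 and 256 CPM in wild type libraries 1 to 3 and to 483, 1231 and 644 CPM in *Piezo1* cKO libraries 1 to 3, with *Acta1* the most abundant. All 5 of these that were tested had higher levels in the 3 *Piezo1* cKO libraries, with no overlap between the groups. In the whole fit, 8.2% of 8551 genes lay wholly above wild type in this way. *Myog*, *Mymk* and *Tnnc1* had 3, 8 and 6 counts in wild type 2, under the minimum count of 10. These 3 passed the filter on low counts with the help of the *Piezo1* cKO libraries, in which they are high. The median log2 fold change of the 5 markers was 2.01. None passed the threshold in edgeR, with 4 at an unadjusted p under 0.05. All 5 markers were called by limma-voom and by edgeR without robust estimation, and 1 (*Acta1*) by DESeq2. Fibro-adipogenic markers summed to 40.3, 32.3 and 56.7 CPM in wild type and 19.0, 18.5 and 21.2 CPM in *Piezo1* cKO. That sum was carried by *Dcn*, the most abundant of them, which fell by 2.17 on the log2 scale (SE 0.38, edgeR adjusted p = 3.87e-04), and without it the groups overlapped at 14.4, 6.69 and 13.0 CPM against 8.87, 11.9 and 17.2 CPM. In that remainder *Ly6a*, the gene of Sca1, had 2, 2 and 3 counts in wild type and 5, 8 and 9 in *Piezo1* cKO, *Pdgfra* 4, 3 and 8 against 1, 1 and 3 and *Lum* 4, 1 and 0 against 1, 0 and 1, so that *Ly6a* had the higher and the other two the lower mean in *Piezo1* cKO, and *Pi16* was at 0 in all libraries. The part of these markers' cells in the results below was not tested, and in bulk RNA fewer cells of a type and less RNA per cell cannot be told apart.

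**Figure D1:**
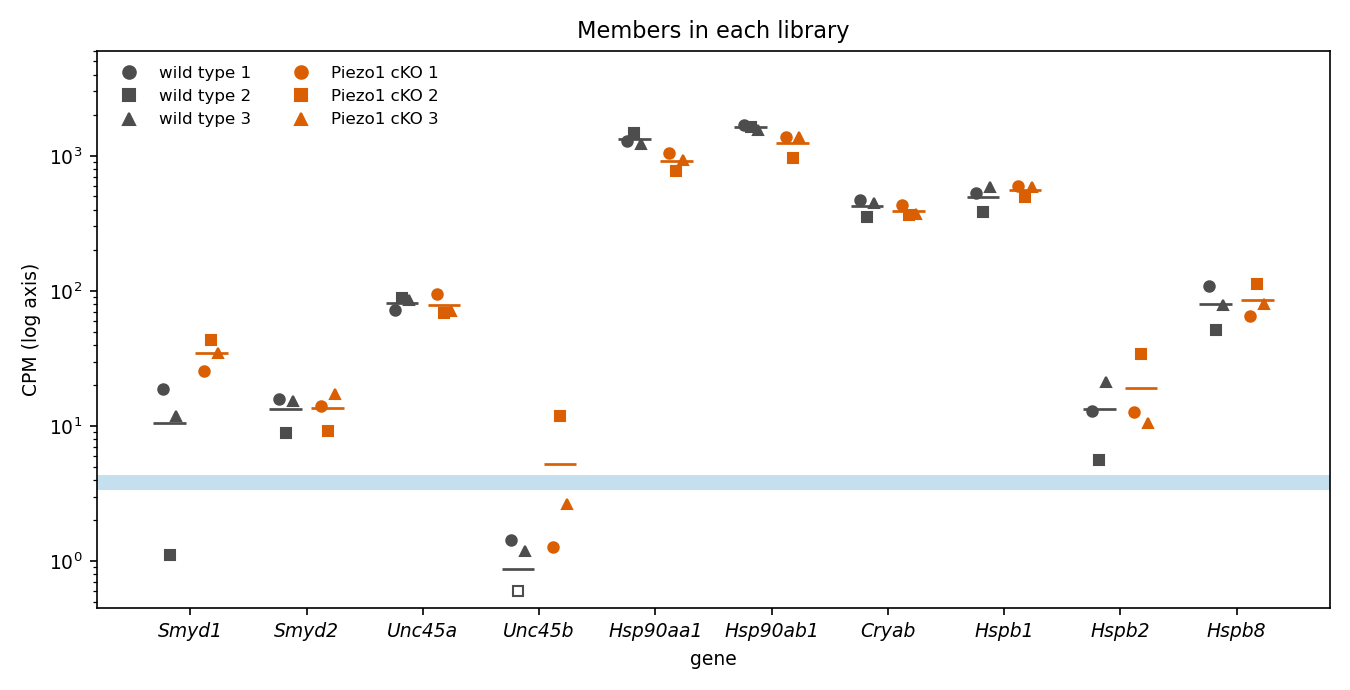
Levels of the 10 members in each library, in CPM on a log axis, with a horizontal line at each group mean. The blue band marks the floor of 3 counts over the libraries, and the open symbol stands for the count of 0 for *Unc45b* in wild type 2. The 3 *Piezo1* cKO libraries lie above all wild type libraries for *Smyd1* and below all of them for *Hsp90aa1* and *Hsp90ab1*.

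*Smyd1* was higher in *Piezo1* cKO MuSCs. It had 13, 1 and 10 counts in wild type libraries 1 to 3 and 20, 33 and 26 counts in *Piezo1* cKO libraries 1 to 3, or 18.7, 1.12 and 11.8 CPM against 25.3, 43.6 and 34.5 CPM. The lowest *Piezo1* cKO library exceeded the highest wild type library, and wild type 2 held a single count, below the floor. Group means were 10.5 ± 8.86 CPM and 34.5 ± 9.12 CPM (mean ± SD, n = 3), a log2 fold change of 1.77 ± 0.43 (SE). *Smyd1* passed the filter on low counts with the help of the *Piezo1* cKO libraries, in which it is high. Of the 8 members tested it was the only one called by edgeR at an adjusted p under 0.05 (0.0430), where 0.784% of 8551 genes were called, 0.468% as higher and 0.316% as lower in *Piezo1* cKO. These were 40 higher and 27 lower genes, against 49 and 18 with total counts as the only scaling and 12 and 15 in DESeq2. The value stands just inside the threshold, and the next member, *Hsp90aa1*, stood just outside it at 0.0567. *Smyd1* was not called with total counts only or with cyclic loess offsets (edgeR adjusted p of 0.0565 and 0.121). It was called with the size factors of DESeq2 in edgeR (adjusted p = 0.0327) and in limma-voom (adjusted p = 0.0281).

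The size of this difference depended on single libraries. Leaving out wild type 1 or *Piezo1* cKO 1 raised the log2 fold change to 2.42 or 1.95 and kept the call (edgeR adjusted p of 0.00163 and 0.000599). Without wild type 2 the log2 fold change was 1.20 and without *Piezo1* cKO 2 it was 1.57, with edgeR adjusted p-values of 0.0835 and 0.430. Without both it was 0.99 (edgeR adjusted p = 0.399), a choice made after the data were seen. Without wild type 3 or *Piezo1* cKO 3 the fold change was 1.93 or 1.77, and the call was lost as well (edgeR adjusted p of 0.0921 and 0.219). The number of genes called over the whole table fell from 67 to 6 without *Piezo1* cKO 2.

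*Smyd1* also varied more than most genes of its abundance, mainly within wild type. Its highest level was 16.8 times its lowest in wild type, where wild type 2 held 1 count, and 1.72 times in *Piezo1* cKO. The biological coefficient of variation that edgeR fitted to it was 0.203, and 97.6% of the 500 tested genes nearest to it in abundance had a lower one, with a median of 0.139. The coefficient of *Hspb8* (0.159) exceeded those of 98.4% of its 500 neighbours. *Hspb1* (0.111) exceeded 92.0%, *Hsp90ab1* (0.112) 89.6% and *Hsp90aa1* (0.111) 83.4% of theirs, whose medians were 0.105, 0.107 and 0.107. The coefficients of *Smyd2* (0.139), *Unc45a* (0.106) and *Cryab* (0.105) lay close to the medians of their neighbours (0.139, 0.105 and 0.104).

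*Smyd2*, a broadly expressed paralog that methylates HSP90 among other proteins, did not share the pattern. It had 11, 8 and 13 counts in wild type and 11, 7 and 13 in *Piezo1* cKO, and the groups overlapped in full at 13.4 ± 3.85 CPM and 13.5 ± 4.01 CPM (n = 3). The log2 fold change was 0.03 ± 0.40 (SE, edgeR adjusted p = 0.986). *Smyd2* overlaps an antisense transcript at its 3′ end, and whether counting used strand is not given in the sources used here. *Smyd1* made up 54.2%, 11.1% and 43.5% of the counts of the pair in wild type and 64.5%, 82.5% and 66.7% in *Piezo1* cKO. The shares of the groups did not overlap, although the Wilson 95% interval of the wild type 2 share, which rests on 9 counts, ran from 1.99% to 43.5%. As *Smyd2* hardly differed, this share restates the difference on which *Smyd1* was selected, and no p is given for it. The 4 listed relatives, *Smyd3*, *Smyd4*, *Smyd5* and *Naca*, whose muscle form binds SMYD1, were all tested and none was called by edgeR, with 0 at an unadjusted p under 0.05 and log2 fold changes of -0.25, -0.01, -0.11 and -0.27, and all 4 overlapped between the groups.

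The UNC45 counts came almost entirely from the general form. *Unc45a* had 50, 79 and 72 counts in wild type and 75, 52 and 54 in *Piezo1* cKO, which gave 81.7 ± 8.61 CPM and 78.4 ± 14.5 CPM (n = 3). The groups overlapped, with a log2 fold change of -0.06 ± 0.18 (SE, edgeR adjusted p = 0.938). *Unc45b*, the muscle form, had 1, 0 and 1 counts in wild type and 1, 9 and 2 in *Piezo1* cKO and did not pass the filter on low counts. Only *Piezo1* cKO 2, the library with the most *Smyd1*, held more than the floor of 3 counts. In wild type 2 the count was 0 of 79 UNC45 counts, which allows a share of up to 3.8% when 3 counts are taken as the limit (the Wilson 95% interval reaches 4.64%), and in *Piezo1* cKO 2 *Unc45b* made up 14.8% (Wilson 95% interval 7.96% to 25.7%). The share averaged 1.11% ± 1.01 in wild type and 6.55% ± 7.20 in *Piezo1* cKO (SD, n = 3) and overlapped between the groups (two-sided exact permutation test, p = 0.3, where 3 against 3 libraries allow no p under 0.1). Without the filter on low counts, edgeR gave *Unc45b* a log2 fold change of 2.45 and an adjusted p of 0.421. Intervals and floors cover counting error only, and antisense transcripts overlap this gene too.

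Both cytosolic HSP90 genes had lower levels in the *Piezo1* cKO libraries. *Hsp90aa1*, the stress-inducible form, stood at 1296, 1472 and 1217 CPM in wild type libraries 1 to 3 and at 1053, 771 and 926 CPM in *Piezo1* cKO libraries 1 to 3. All *Piezo1* cKO libraries lay below the wild type range, and the group means were 1328 ± 131 CPM and 917 ± 141 CPM (SD, n = 3). The log2 fold change was -0.53 ± 0.15 (SE) and did not pass the threshold in edgeR (adjusted p = 0.0567). It passed in 5 of the alternatives, among them DESeq2 (-0.55, adjusted p = 0.00829) and total counts as the only scaling (-0.46, edgeR adjusted p = 0.0432), whereas cyclic loess offsets brought it to -0.32 (edgeR adjusted p = 0.152). *Hsp90ab1*, the constitutive form, stood at 1697, 1639.6 and 1550.3 CPM in wild type and at 1389, 972 and 1370.1 CPM in *Piezo1* cKO. The groups did not overlap here either, and *Piezo1* cKO 2 was the lowest library for both genes. Its log2 fold change of -0.39 ± 0.15 (SE) did not pass (edgeR adjusted p = 0.241) and came to -0.15 with cyclic loess offsets.

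The balance between the pair stayed close. *Hsp90ab1* contributed from 52.7% to 56.7% of their summed counts in wild type and from 55.8% to 59.7% in *Piezo1* cKO. The mean shares of 55.1% ± 2.15 and 57.4% ± 2.01 (SD, n = 3) overlapped between the groups (two-sided exact permutation test, p = 0.4). Over the 6 libraries log2 CPM of the pair correlated with r = 0.925, a description over libraries that differ in depth and group. Non-overlap of this kind is common in this table: 8.31% of the genes tested lay wholly lower in *Piezo1* cKO and 8.2% wholly higher, and of the 8 members tested 2 and 1 did so. The HSP90 genes are close paralogs of each other, and the treatment of reads that map to several places is not given in the sources used here, which leaves their absolute levels uncertain.

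HSP90 works with co-chaperones that load clients, set the pace of its ATPase or hold its closed state. Of 17 listed co-chaperone genes 15 were tested and none was called by edgeR or DESeq2, while 5 had an unadjusted edgeR p under 0.05. Over all lists of pathway genes used here 0 of 45 tested genes were called by edgeR and 11 had such a p, beside 1019 of the 8551 genes of the table. Of the 15, 11 had negative and 4 positive log2 fold changes, with a median of -0.08 beside 0.00 for all genes tested, 50.2% of which were positive. The median of the list was -0.0073 with total counts only and -0.16 over 12 genes in DESeq2, where the medians of all genes tested were 0.078 and -0.059. It was -0.12 without *Piezo1* cKO 2 and -0.048 without wild type 2. The *Piezo1* cKO libraries lay wholly below wild type for 6 of the 15 and wholly above for 0. *Nudc*, a cochaperone named for its role in nuclear movement, had 489 ± 31.5 CPM in wild type and 388 ± 56.2 CPM in *Piezo1* cKO (SD, n = 3), a log2 fold change of -0.33 ± 0.13 (SE, edgeR adjusted p = 0.268). *Fkbp4*, an immunophilin that binds HSP90, stood at 657 ± 72.0 CPM and 520.1 ± 66.8 CPM and was -0.34 ± 0.14 on the same scale (edgeR adjusted p = 0.273). *Ptges3*, which encodes p23 and stabilises the closed form of HSP90, was at -0.32 ± 0.14 (edgeR adjusted p = 0.302). None of these 3 passed the test, although in each the groups did not overlap. Of the HSP90 genes of other compartments, *Hsp90b1* of the endoplasmic reticulum stood at 949, 819.8 and 832 CPM against 702, 579.8 and 682 CPM without overlap (-0.40 ± 0.14, edgeR adjusted p = 0.167). *Trap1* of mitochondria overlapped between the groups (-0.03 ± 0.15, edgeR adjusted p = 0.959).

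**Figure D2:**
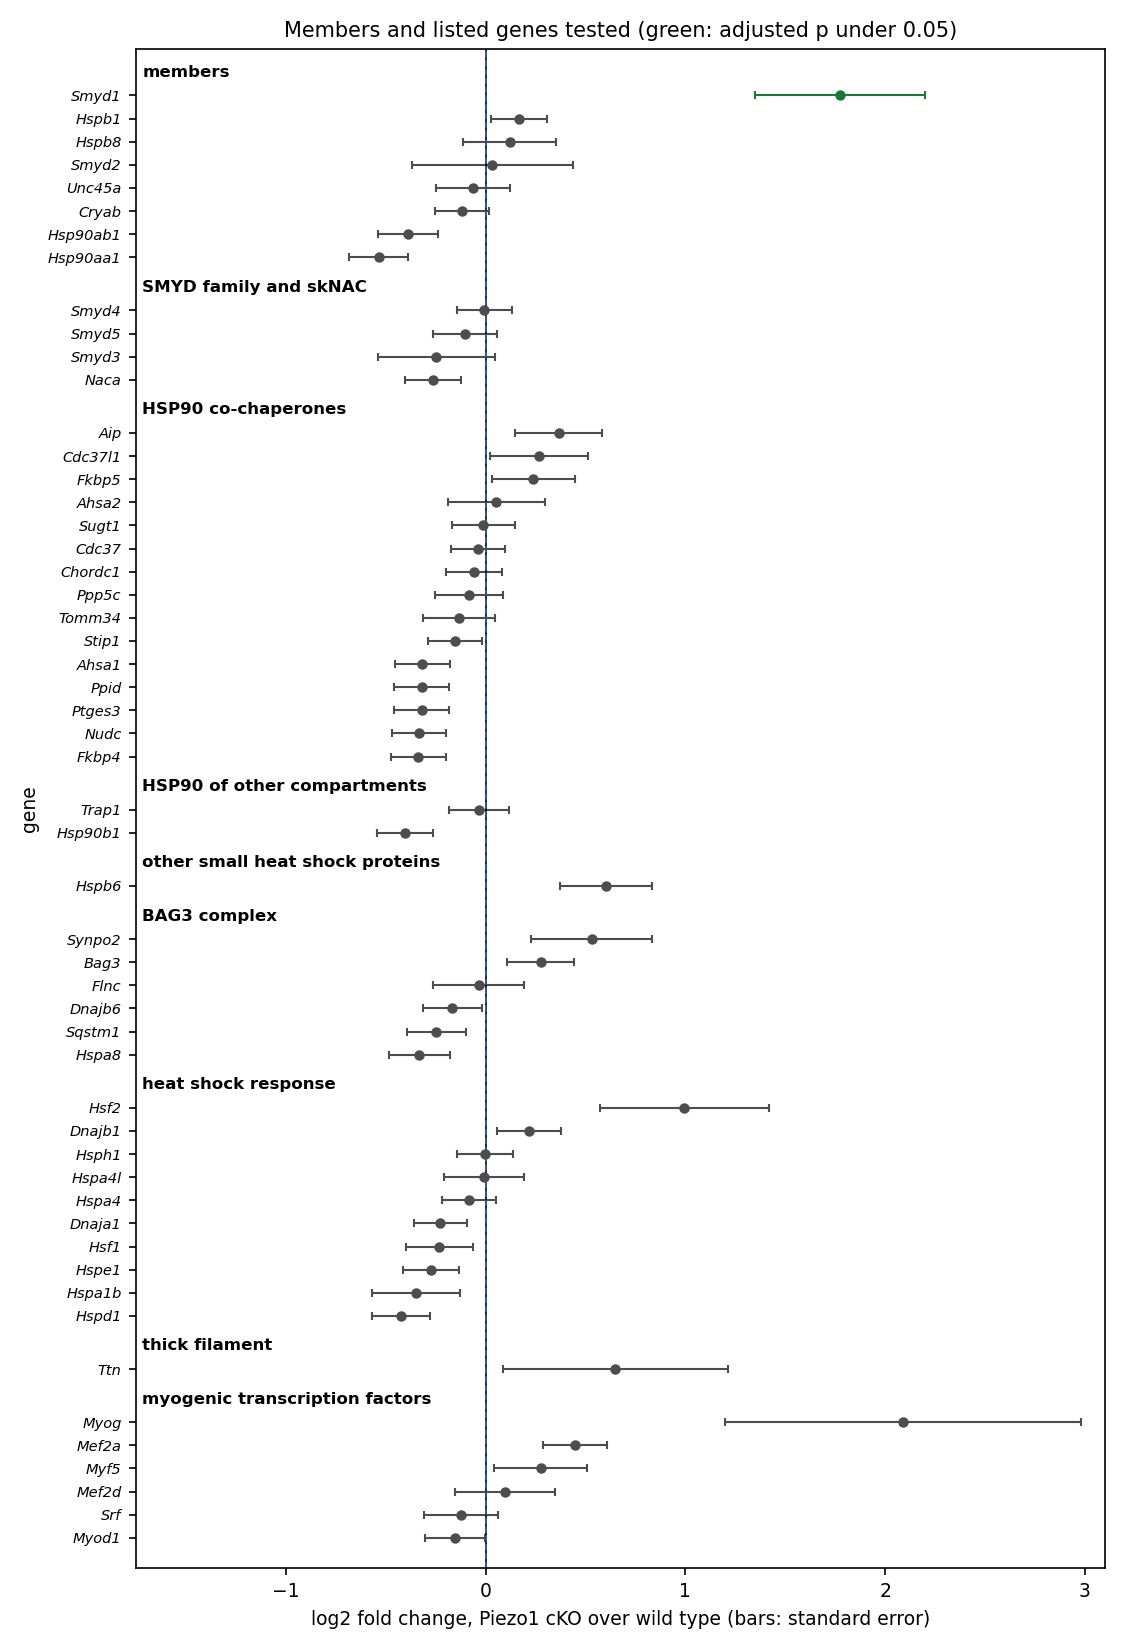
Log2 fold changes of *Piezo1* cKO over wild type for the 8 members and the listed genes that were tested, with standard errors, grouped by list. The dashed line at the median of all genes tested lies on 0, *Smyd1* is the gene drawn in green for an adjusted p under 0.05 (its selection used this contrast), and 11 of the 15 co-chaperones lie left of 0.

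The levels of all 4 small heat shock protein genes overlapped between the groups. *Cryab*, on chromosome 9, had 469, 355 and 449 CPM in wild type and 433, 365 and 369.7 CPM in *Piezo1* cKO, with a log2 fold change of -0.12 ± 0.14 (SE, edgeR adjusted p = 0.801). *Hspb1*, which encodes a chaperone that also binds actin, had 534, 381 and 583 CPM and 602, 494 and 584 CPM (0.17 ± 0.14, edgeR adjusted p = 0.693). For both genes wild type 2 was the lowest of all libraries. *Hspb8*, the partner of BAG3, had 109, 51.3 and 79.1 CPM and 64.6, 112 and 79.5 CPM (0.12 ± 0.23, edgeR adjusted p = 0.902). Here wild type 1 and *Piezo1* cKO 2 were the high libraries, so that the spread lay within the groups. *Hspb2*, a muscle-enriched member, had 9, 5 and 18 counts in wild type and 10, 26 and 8 in *Piezo1* cKO and did not pass the filter on low counts. Its highest value again came from *Piezo1* cKO 2, with the other libraries of that group inside the wild type range.

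*Cryab* and *Hspb2* lie head to head on chromosome 9 (GRCm38). *Hspb2* occupies 50751078 to 50752354 on the minus strand and *Cryab* 50751325 to 50756636 on the plus strand, and the annotated genes overlap by 1030 bases. The overlap reaches to 247 bases from the 3′ end of *Hspb2*, where its poly(A)-primed counts would fall, and lies 4282 bases from that of *Cryab*. Without knowledge of strand in the counting, reads of *Hspb2* and of its more abundant neighbour cannot be told apart within the overlap. *Cryab* held 97.1% ± 1.5 of the summed counts of this pair in wild type and 95.3% ± 3.35 in *Piezo1* cKO (SD, n = 3), and the ranges overlapped (two-sided exact permutation test, p = 0.5).

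Within the sum of the 4 small heat shock protein genes, the share of *Cryab* was lower in all *Piezo1* cKO libraries. It was 41.7%, 44.7% and 39.6% in wild type and 39.0%, 36.3% and 35.4% in *Piezo1* cKO, with means of 42.0% ± 2.57 and 36.9% ± 1.85 (SD, n = 3). The gap between the closest libraries of the groups was smaller than their Wilson 95% intervals, which ran from 36.6% to 42.8% in wild type 3 and from 35.8% to 42.2% in *Piezo1* cKO 1. A two-sided exact permutation test gave p = 0.1, the smallest value that 3 against 3 libraries allow. *Hspb1* held 49.0% ± 2.18 and 53.1% ± 3.52 of the sum (p = 0.2), *Hspb8* 7.72% ± 1.75 and 8.20% ± 2.73 (p = 0.8), and *Hspb2* 1.24% ± 0.592 and 1.86% ± 1.35 (p = 0.7), all by the same exact test with n = 3. The shares of these 3 genes overlapped between the groups. Counts stem from transcript ends and are therefore not divided by length, and a share compares numbers of captured molecules.

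**Figure D3:**
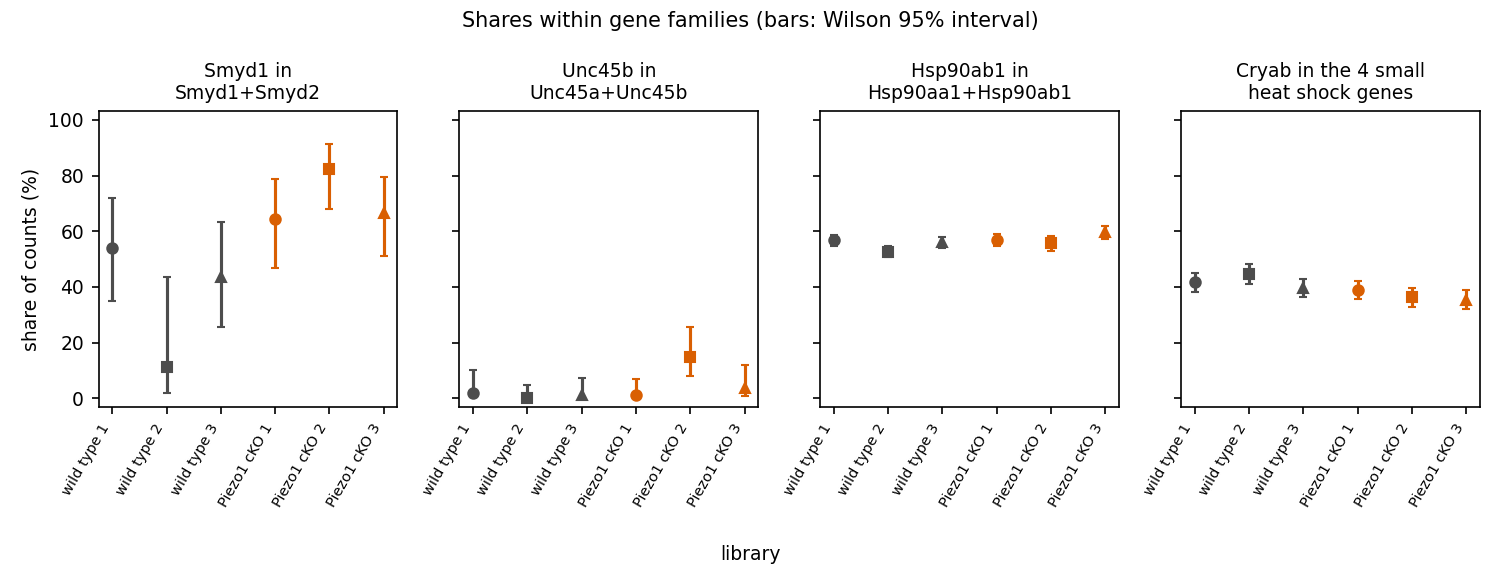
Share of counts, in percent, of *Smyd1*, *Unc45b*, *Hsp90ab1* and *Cryab* within their families in each library, with Wilson 95% intervals for counting error. The intervals are wide for *Smyd1* and *Unc45b*, which rest on few counts, and narrow for *Hsp90ab1*, whose shares lie between 52.7% and 59.7%.

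Other small heat shock protein genes included 1 that passed the filter. *Hspb6*, which encodes a small heat shock protein of muscle, had 32, 30 and 33 counts in wild type and 54, 45 and 38 in *Piezo1* cKO. The groups did not overlap, and the log2 fold change of 0.60 ± 0.23 (SE) did not pass the threshold (edgeR adjusted p = 0.234). *Hspb3* had 2, 1 and 4 against 5, 13 and 4 counts and was not tested, and *Hspb7* had a single count in the 6 libraries. In the BAG3 complex, which disposes of damaged filament proteins, 6 of 7 listed genes were tested and none was called by edgeR or DESeq2, 1 with an unadjusted edgeR p under 0.05, with 2 positive and 4 negative log2 fold changes. Their median of -0.10 had no stable sign, as it was 0.0081 without *Piezo1* cKO 1 and -0.22 without *Piezo1* cKO 3. In DESeq2 it was -0.22 over 4 genes, where the median of all genes tested was -0.059. The chaperone gene *Hspa8* stood at 1810.2 ± 159 CPM and 1436 ± 231 CPM (SD, n = 3) with no overlap (-0.33 ± 0.15, edgeR adjusted p = 0.364), and the autophagy receptor gene *Sqstm1* was at -0.25 ± 0.15 (edgeR adjusted p = 0.513). *Synpo2*, which links BAG3 to the Z-disc, lay on the other side of 0 at 0.53 ± 0.30 (edgeR adjusted p = 0.492).

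The heat shock response was described by heat shock factors and inducible chaperones. Of its 11 listed genes 10 were tested, 0 were called by edgeR or DESeq2 with 2 at an unadjusted edgeR p under 0.05, and 8 had negative log2 fold changes. The median of -0.16 stayed negative in the alternatives run, between -0.23 without the filter on low counts and -0.060 with loess offsets, and was -0.23 without *Piezo1* cKO 1. *Hspd1*, the mitochondrial HSP60 gene, had 823, 928 and 876 CPM in wild type and 799.8, 502 and 655 CPM in *Piezo1* cKO (-0.43 ± 0.14, edgeR adjusted p = 0.162). Its partner *Hspe1* was at -0.27 ± 0.14 (edgeR adjusted p = 0.426). For both the groups did not overlap, and *Hspd1* was called by edgeR when *Piezo1* cKO 1 was left out. *Hsf2*, a heat shock factor, was 1 of the 2 tested genes of the list with a positive log2 fold change. It had 6, 6 and 8 counts in wild type and 13, 13 and 12 in *Piezo1* cKO. *Hsf2* passed the filter on low counts through the *Piezo1* cKO libraries, in which it is high. Its log2 fold change of 1.00 ± 0.42 did not pass either (edgeR adjusted p = 0.302). Among the 6 members whose promoters were searched, which leaves out *Cryab*, *Hspb2*, *Hsp90aa1* and *Hsp90ab1*, those with a match to a heat shock element, *Hspb1* and *Hspb8*, had log2 fold changes of 0.17 and 0.12.

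Most listed genes of the sarcomeric thick filament and M-band had few counts at 3 d of culture, and non-muscle myosins were not listed. Of 14 listed thick filament and M-band genes, 10 were among the rows analysed and *Ttn*, which encodes the giant ruler protein of the sarcomere, was the single gene tested. It had 79, 32 and 64 counts in wild type and 54, 130 and 79 in *Piezo1* cKO, and the groups overlapped (0.65 ± 0.56, edgeR adjusted p = 0.745). *Myh3*, the embryonic myosin heavy chain gene, had 1, 0 and 0 counts in wild type and 9, 35 and 4 in *Piezo1* cKO. *Myom3*, an M-band gene, had 0, 1 and 6 counts in wild type and 8, 21 and 6 in *Piezo1* cKO. In both genes *Piezo1* cKO 2 held the most counts, and both passed the threshold in edgeR when no filter on low counts was set. *Myh1* had 1, 0 and 1 against 1, 8 and 2 counts, *Mybpc1* 3, 0 and 2 against 1, 14 and 1 and *Myom2* 1, 2 and 0 against 2, 7 and 2, with *Piezo1* cKO 2 again the highest. *Myh4*, *Myh8* and *Myom1* had at most 3 counts in any library.

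Of the 8 listed muscle transcription factor genes 6 were tested and none was called by edgeR, with 1 at an unadjusted p under 0.05, 4 positive and 2 negative log2 fold changes and a median of 0.19, which was 0.055 without wild type 2 and 0.097 without *Piezo1* cKO 2. *Myog*, the factor of terminal differentiation, had 40, 3 and 45 counts in wild type and 63, 203 and 92 in *Piezo1* cKO. The groups did not overlap, but the spread within them was large and the log2 fold change of 2.09 ± 0.89 did not pass (edgeR adjusted p = 0.468). It did pass in limma-voom, in edgeR without robust estimation and in edgeR without wild type 2 and *Piezo1* cKO 2. *Mef2a*, a partner of the myogenic factors, had 116, 91.5 and 96.8 CPM against 136, 149 and 129 CPM without overlap (0.45 ± 0.16, edgeR adjusted p = 0.187). *Myf5* and *Myod1*, factors of proliferating myoblasts, overlapped between the groups at 0.28 ± 0.23 and -0.15 ± 0.15 (edgeR adjusted p of 0.698 and 0.743).

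The genes whose levels over the 6 libraries were most like that of *Smyd1* were ranked by Pearson's r of log2 CPM among 8550 genes. They were *Pgam2*, the muscle form of phosphoglycerate mutase (r = 0.996, rho = 1), *Prrx2* (0.994, rho = 0.943), *Scand1* (0.994, rho = 1), *Adssl1*, the muscle form of adenylosuccinate synthase (0.993, rho = 0.943), *Mfsd11* (0.992, rho = 1) and *Trp53inp2* (0.991, rho = 0.943). *Pgam2* had 21, 4 and 18 counts in wild type and 31, 56 and 36 in *Piezo1* cKO, and thus the same order of libraries as *Smyd1*. Of the 8550 genes, 45 had a rho of 1 with *Smyd1*. Of the 6 genes *Trp53inp2* was called by edgeR, with 26.4 ± 12.1 CPM and 51.3 ± 4.83 CPM (SD, n = 3) and an adjusted p of 0.0473. Over all genes tested 0.784% were called. The 6 genes were picked for following *Smyd1* over these same libraries, which favours such a call, so that it is given as a description only.

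The 5 differentiation markers tested had positive values of unequal rank. *Myog* had r = 0.983 and rank 18, *Tnnt3* 0.975 and rank 33, and *Mymk*, which encodes the fusion protein myomaker, 0.964 and rank 54. *Tnnc1*, a troponin gene, had 0.853 and rank 431, and *Acta1*, the skeletal actin gene, 0.786 and rank 700 (rho = 0.943 for both). Of the members, *Hspb1* (r = 0.725, rho = 0.314) and *Hspb8* (0.712, rho = 0.714) had positive values and *Hsp90aa1* had the most negative (r = -0.866, rho = -0.943, rank 8277). *Hsp90ab1* followed at -0.658 (rho = -0.829) and *Unc45a* at -0.540 (rho = -0.657), whereas *Smyd2* stood at 0.387 (rho = 0.257). For *Cryab* the measures differed in sign (r = 0.141, rho = -0.086). These values describe 6 libraries that differ in depth and group. Wild type 2 and *Piezo1* cKO 2 form the ends, and they also held the most and the fewest counts in total (931168 and 726378).

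**Figure D4:**
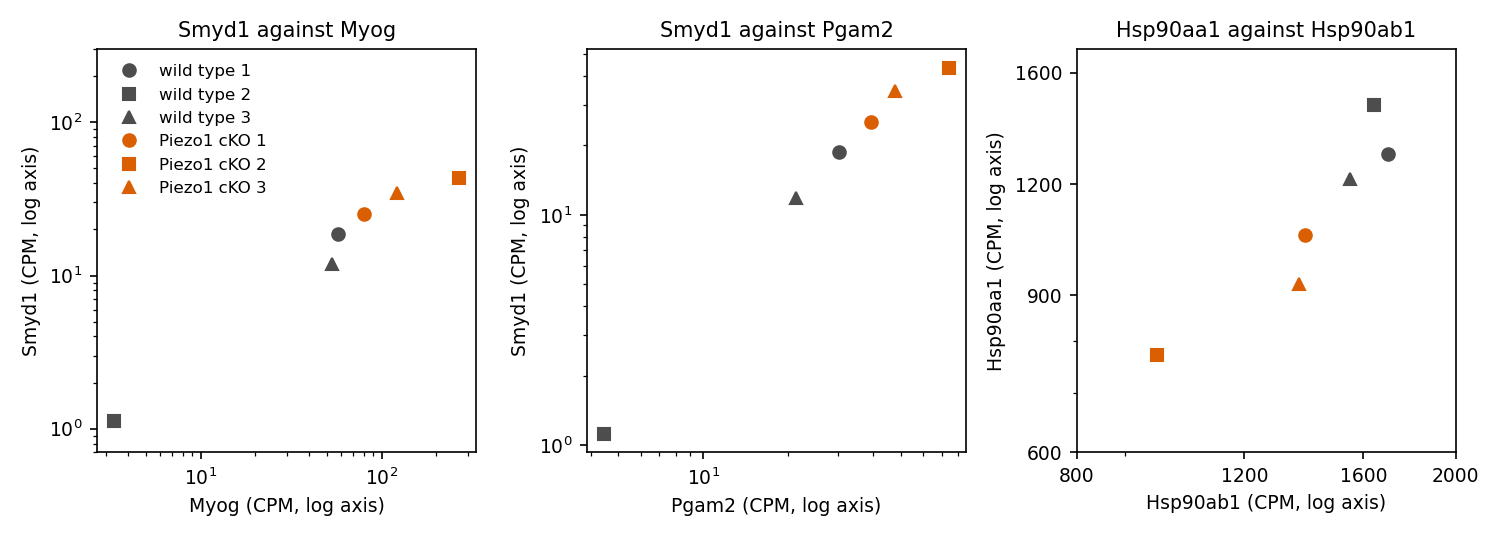
Levels in CPM on log axes, 1 symbol per library, of *Smyd1* against *Myog* and against *Pgam2*, and of *Hsp90aa1* against *Hsp90ab1*. Wild type 2 lies lowest and *Piezo1* cKO 2 highest in the *Smyd1* panels, and *Piezo1* cKO 2 lies lowest in the HSP90 panel.

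The loci of the members are spread over the mouse genome (GRCm38). *Smyd1* lies at 71213940 to 71322233 on the minus strand of chromosome 6, and genes on the opposite strand overlap it from 57731 bases above its 3′ end onwards. *Smyd2* lies at 189880492 to 189922363 on chromosome 1, *Unc45a* at 80325292 to 80341005 on chromosome 7 and *Unc45b* at 82910550 to 82943403 on chromosome 11. The RefSeq promoters printed for *Smyd1* (71262262 to 71262431) and *Unc45b* (82911103 to 82911272) lie inside these annotated loci and not at their 5′ ends. *Hsp90aa1* lies at 110690605 to 110702728 on chromosome 12 and *Hsp90ab1* at 45567775 to 45573271 on chromosome 17. *Hspb1* at 135887919 to 135889563 and *Hspb8* at 116408491 to 116422864 share chromosome 5. All 10 are protein-coding genes.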

How the data were processed

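The authors reverse transcribed total RNA with barcoded oligo-dT primers, mapped paired-end reads to GRCm38 with STAR 2.7.9a, assigned them to genes with featureCounts 2.0.1 and counted UMIs with UMI-tools 1.1.1, and these raw counts per gene were deposited without normalisation as 1 table of 6 libraries. Settings for strand and for reads with several positions are not given in the sources used here.

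Counts were analysed in R 4.3.3 with edgeR 4.0.16 (TMM, robust quasi-likelihood fit of 3 against 3 libraries without covariates, filter with a minimum count of 10, Benjamini-Hochberg adjustment over 8551 genes, threshold 0.05). The standard error is the log2 fold change divided by the root of F. CPM use the library sizes of that fit. *Piezo1* was kept in a fit of its own regardless of the filter. Likeness used log2 CPM with a prior count of 2. Shares were compared by two-sided exact permutation tests, which give no p under 0.1 here. Alternatives were DESeq2 1.42.0, limma-voom (3.58.1), other scalings and filters, a replicate block, a threshold of 0.1 and each library left out. The test was checked on simulated counts with 200 changed genes.

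The members, the gene lists and the tests were chosen with earlier results of these data known. Named genes are all members and *Piezo1*, all genes of a list with 5 or fewer tested, otherwise the 3 with the smallest unadjusted p and the 2 of highest mean CPM, and the 6 genes most like *Smyd1*. Cell type markers, such as *Ly6a*, that are named beyond this rule were chosen after their values were seen. The result of 1 listed gene is not reported here. Gene positions come from a GENCODE annotation of GRCm38. Library pairs differed by more than sampling noise (chi-square per degree of freedom from 1.64 to 2.61), so that all were counted as separate.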

Additional observations from a re-analysis of the deposited data

How the results depend on the processing

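The *Smyd1* difference kept its sign in every alternative in which it was tested (1.20 to 2.42 with each library left out), but its edgeR adjusted p rose above the threshold with total counts only (1.85, 0.0565), cyclic loess offsets (1.67, 0.121) and without wild type 2 and *Piezo1* cKO 2 together (0.99, 0.399). It was not tested where at least 10 counts were required in every library, and DESeq2 gave it no adjusted p. *Hsp90aa1* was lower in all alternatives (-0.65 to -0.43 with each library left out, -0.34 without both libraries) and passed the threshold with total counts only (-0.46), without a filter on low counts (-0.54), with at least 10 counts in every library (-0.52), in DESeq2 (-0.55) and without *Piezo1* cKO 1. *Hsp90ab1* passed in none, with -0.48 to -0.24 as each library was left out (-0.24 without *Piezo1* cKO 2), and *Hspb1* ran from 0.0082 without wild type 2 to 0.30 without wild type 3. Members called numbered 0 with loess offsets and without both libraries, 2 without the filter and at an adjusted p under 0.1, and 0 to 2 with each library left out, and the 1 member called by DESeq2 or with total counts only was *Hsp90aa1* in place of *Smyd1*. Of the listed pathway genes 0 were called, against 2 without the filter (*Myh3* and *Myom3*), 1 each in limma-voom and in the fit without robust estimation (*Myog*), 1 without both libraries (*Myog*) and 0 to 1 with each library left out. Genes called over the whole table numbered 38 with loess offsets, 129 without the filter, 27 in DESeq2, 124 at an adjusted p under 0.1 and 6 to 174 with each library left out. Higher and lower calls split as 76 and 29 without wild type 1, 24 and 5 without *Piezo1* cKO 3, and 22 and 25 without both libraries. Members near 0 changed sign. *Smyd2* was -0.076 with loess offsets, -0.0011 without both libraries and -0.20 to 0.24 with each library left out. *Unc45a* was 0.081 without both and -0.23 to 0.02 with each library left out. With total counts only *Unc45a* was 0.0099, below the median of 0.078 that all genes tested had there. *Cryab* was 0.0043 with loess offsets and -0.23 to -0.041 with each library left out, and *Hspb8* -0.37 without both and -0.13 to 0.40. The differences in family shares moved by less than the pooled SD of the groups in every alternative run. They spanned 22.4 to 43.9 percentage points for *Smyd1*, 1.33 to 8.05 for *Unc45b*, 0.86 to 3.13 for *Hsp90ab1* and 2.60 to 6.01 for *Hspb1*. They changed sign for *Cryab* beside *Hspb2* (-2.81 to 0.10, the latter without *Piezo1* cKO 2), *Hspb2* (-0.17 to 1.03) and *Hspb8* (-1.01 to 1.67) of the 4 small heat shock protein genes. The lowest correlation of the 6 genes most like *Smyd1* was 0.943 as Spearman's rho. Without both libraries the list medians were -0.12 for co-chaperones, -0.088 for the BAG3 complex, -0.063 for the heat shock response and 0.043 for muscle transcription factors. The heat shock median was -0.081 with total counts only, where the median of all genes tested was 0.078. The cause of these changes was not tested. Few counts limit *Smyd1*, *Smyd2*, *Unc45b* and *Hspb2*.

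Whether equal replicate numbers stand for paired libraries could not be settled. Across the groups, libraries 1, 2 and 3 had deviations that correlated with r = -0.14, -0.20 and 0.01. Of 6 libraries, 0 correlated best with their own number in the other group. With 3 libraries in each group, these few values show no sign of pairing but cannot exclude a shared preparation. With the replicate block the log2 fold change of *Smyd1* was 1.79 (edgeR adjusted p = 0.283) and 0 members were called, while *Hsp90aa1* was at -0.54 (0.0528), and 46 genes were called over the whole table. No other call among members and listed pathway genes changed.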

Other observations

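Of the 7 markers of MuSCs and myoblasts, all tested, 0 were called by edgeR and 2 had an unadjusted p under 0.05, with 4 positive and 3 negative log2 fold changes. *Cdh15*, the gene of M-cadherin, had 54, 88 and 117 counts in wild type and 131, 111 and 108 in *Piezo1* cKO. *Vcam1*, whose product was used for the sort, had 86, 128 and 129 counts in wild type and 92, 65 and 79 in *Piezo1* cKO. Scaled for depth, neither gene overlapped between the groups, and neither passed the threshold (log2 fold changes of 0.53 and -0.45, edgeR adjusted p of 0.118 and 0.185), although *Cdh15* was called without wild type 3. *Pax7*, the transcription factor of MuSCs, had 10, 26 and 19 counts in wild type and 16, 5 and 12 in *Piezo1* cKO, and the groups overlapped (-0.64, edgeR adjusted p = 0.481). These genes were named after their values were seen.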
